A study of Mus musculus with 6 samples.

Results

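The EphB receptors and their ephrin-B ligands were followed in retinal ganglion cells (RGCs), the output neurons of the retina, at embryonic day 18 (E18) and postnatal day 5 (P5). The members were chosen by gene symbol and comprise 8 of the 24060 genes in the count table, namely the receptors Ephb1, Ephb2, Ephb3, Ephb4 and Ephb6 and the ligands Efnb1, Efnb2 and Efnb3. All 8 had enough reads to be tested. RGCs of C57BL/6 mice were dissociated with papain, cleared of macrophages and held on dishes coated with antibody to CD90 (Thy1), and RNA was sequenced from 3 samples at each age, numbered 1, 3 and 4 at E18 and 6, 8 and 9 at P5. Neither group carried a transgene or received a treatment. The comparison asks which genes differ between an age at which RGCs grow axons readily and one at which they have lost much of that ability. The labels do not say whether samples came from separate litters, whether animals were pooled, or what sex they were, and the table's header gives E18 replicate 1 the numbers 2 and 5 beside its own, which leaves unstated whether it combines several preparations. With this unknown, n counts samples, so p-values measure only the spread between these samples.

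EphB receptors are receptor tyrosine kinases, and ephrin-Bs are ligands that span the membrane of the opposing cell. Contact sends a forward signal through the receptor kinase and a reverse signal through the ephrin-B tail, which often turns a growth cone away. In the visual system EphB1 sends ventrotemporal RGC axons to the same side of the brain by repulsion from ephrin-B2 at the optic chiasm, and opposing gradients of EphB and ephrin-B across the dorsoventral axis of the retina help to order axons in the midbrain.

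Between 81213639 and 114512853 reads per sample fell on genes. The 10 RGC markers were all detected and summed to 6099 to 6928 CPM (counts per 1000000 reads, with library sizes scaled by TMM) at E18 and 6949 to 8344 CPM at P5, with 2 higher at E18 (Isl1 and Sncg), 3 lower (Nefl, Slc17a6 and Thy1) and 5 not past the threshold. Of all genes tested, 43.4% passed, 20.8% as higher and 22.5% as lower at E18. Thy1, the antigen used for panning, had 212 to 312 CPM at E18 and 469 to 690 CPM at P5 (log2 fold change -1.16, edgeR adjusted p = 0.00197). E18 replicates 1 and 3 stood apart from E18 replicate 4 in RNA of other cells. Markers of retinal progenitors summed to 149, 92.4 and 11.03 CPM in E18 replicates 1, 3 and 4, against 9.83 to 10.5 CPM at P5, with 6 of 9 genes higher at E18 and none lower. Markers of dividing cells summed to 223, 60.0 and 17.7 CPM, against 11.9 to 24.4 CPM at P5, and those of amacrine cells to 99.0, 200.4 and 15.6 CPM, against 19.3 to 29.2 CPM. Single genes of other lists, named after their values were seen, divided the E18 samples in the same way: Otx2 of the bipolar list had 11.1, 3.40 and 0.618 CPM (P5 0.173 to 0.530), Crx of the photoreceptor list 6.15, 2.78 and 0.773 CPM (P5 0.173 to 0.425) and Slc1a3 of the Müller glia and astrocyte list 16.2, 2.80 and 0.475 CPM (P5 1.11 to 1.78). Some other genes of these lists did not divide the E18 samples so. In E18 replicates 1, 3 and 4, Trpm1 of the bipolar list had 2.19, 2.20 and 2.90 CPM. Prkca of that list had 40.7, 40.7 and 45.5 CPM. Clu of the Müller glia and astrocyte list had 22.6, 23.7 and 29.6 CPM. Pde6b of the photoreceptor list had 0.615, 0.803 and 0.773 CPM. The sums of the Müller glia and astrocyte list (348 to 374 CPM at E18, 315 to 324 at P5) and of the bipolar list (46.7 to 54.6, 69.0 to 96.6 CPM) were carried mostly by Glul and Prkca. Microglial markers summed to 1.80 to 2.66 and 1.48 to 2.15 CPM, and oligodendrocyte markers to 70.8 to 73.5 and 35.6 to 59.4 CPM, at E18 and P5. In RNA from a population, fewer cells of a type and less RNA per cell cannot be told apart.

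The members that passed the test between the ages were all receptors, and the DNA just upstream of these genes is shown because theirs are the transcripts that moved. RefSeq promoter sequences (GRCm38.p6, the assembly behind mm10) matched 7 of the 8 members. Each run holds 200 bases, from 250 to 51 bases before the RefSeq start, written 5′ to 3′ on the strand of the gene. Capitals mark matches on either strand to GGGCGG (the Sp1 box), CCAAT (the CCAAT box) or CCGGAAG (a core bound by Ets factors, the family of Elk-1).
Ephb2, chr4:136836063-136836262, minus strand: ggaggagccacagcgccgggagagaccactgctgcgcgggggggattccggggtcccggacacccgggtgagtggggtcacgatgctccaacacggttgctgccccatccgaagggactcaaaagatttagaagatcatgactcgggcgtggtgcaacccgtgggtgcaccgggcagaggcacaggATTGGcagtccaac
Ephb3, chr16:21204545-21204744, plus strand: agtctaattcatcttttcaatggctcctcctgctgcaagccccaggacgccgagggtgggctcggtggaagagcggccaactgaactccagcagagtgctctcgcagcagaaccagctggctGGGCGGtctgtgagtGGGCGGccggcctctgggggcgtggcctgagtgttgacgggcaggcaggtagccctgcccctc
Ephb6, chr6:41605261-41605460, plus strand: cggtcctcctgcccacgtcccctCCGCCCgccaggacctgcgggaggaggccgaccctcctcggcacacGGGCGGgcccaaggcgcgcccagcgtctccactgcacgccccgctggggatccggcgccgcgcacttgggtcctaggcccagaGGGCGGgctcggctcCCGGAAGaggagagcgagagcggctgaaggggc
Ephb4, chr5:137349859-137350058, plus strand: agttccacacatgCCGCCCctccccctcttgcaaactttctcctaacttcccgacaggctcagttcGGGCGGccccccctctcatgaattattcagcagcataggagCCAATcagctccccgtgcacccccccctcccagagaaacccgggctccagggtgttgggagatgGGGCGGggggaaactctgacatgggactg

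No motif of these 3 was found before all of the receptors that were higher at E18. The Sp1 box was found 2 times before Ephb3, 3 times before Ephb6 and 3 times before Ephb4, and it is present in 24.6% of the 32851 windows of the same length in the RefSeq table. The CCAAT box was found 1 time each before Ephb2 and Ephb4 (28.4% of windows), and the Ets core 1 time before Ephb6 (3.98% of windows). CpG pairs numbered 14, 10, 23 and 7 before Ephb2, Ephb3, Ephb6 and Ephb4, against a median of 4 over all windows. Members that did not pass the test held such letters too, with 20 CpG pairs, 2 Sp1 boxes and 2 CCAAT boxes before Efnb2, 8 CpG pairs and 2 CCAAT boxes before Ephb1, and 10 CpG pairs before Efnb1. A match describes letters in the window and does not show binding.

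Of the 8 members, 3 receptors were higher at E18 (Ephb2, Ephb3 and Ephb6), 1 receptor was lower (Ephb4), and Ephb1 and the 3 ligands did not pass the threshold (edgeR's quasi-likelihood test, Benjamini-Hochberg adjusted p under 0.05 over all genes tested). Over the 16449 genes tested, 43.4% passed, 20.8% as higher and 22.5% as lower at E18, so that passing was common at these ages. The median log2 fold change, E18 over P5, was 0.07 over the members and 0.0047 over all genes tested. It was 0.55 over the 5 receptors and -0.06 over the 3 ligands. In 5 of the 8 members, all receptors, the samples of the ages did not overlap, as in 56.1% of all genes tested.

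**Figure D1:**
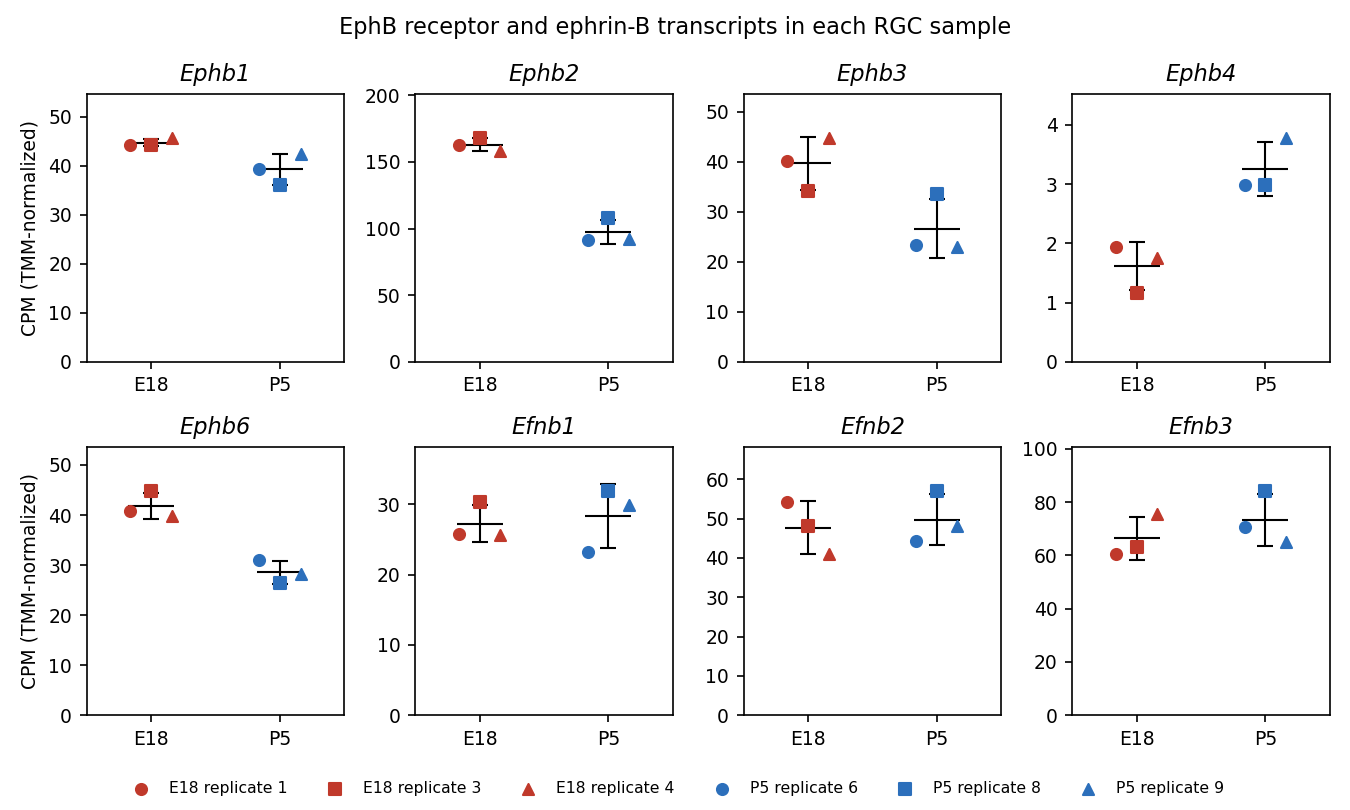
TMM-normalized CPM (y axis, from 0) of each EphB receptor and ephrin-B gene in the 3 E18 samples (red) and the 3 P5 samples (blue), with the mean as a line and the SD as whiskers. The E18 points of Ephb2, Ephb3 and Ephb6 all lie above the P5 points and those of Ephb4 all lie below, whereas the points of the 3 ephrin-B genes overlap.

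Ephb2, a receptor of forward signalling that also gathers NMDA receptors at synapses, lies on chromosome 4 of mm10 (136647539 to 136835988, minus strand). It had 162, 168 and 158 CPM in E18 replicates 1, 3 and 4 and 91.6, 107.6 and 92.3 CPM in P5 replicates 6, 8 and 9. Every E18 sample was well above the highest P5 sample, and the spread within either age was small beside that gap. The means were 163 ± 4.78 and 97.2 ± 9.06 CPM (SD, n = 3 each), a 1.67-fold difference (log2 fold change 0.74, standard error 0.0939, edgeR adjusted p = 0.000721). With only E18 replicate 4, which held little progenitor or amacrine RNA, against the P5 samples, the log2 fold change was 0.71. That fit, chosen after seeing the data, holds a single E18 sample and cannot show the spread at E18.

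Ephb6, whose kinase domain lacks catalytic activity, lies on chromosome 6 (41605482 to 41620509, plus strand). Its values were 40.7, 44.7 and 39.8 CPM at E18 and 31.0, 26.4 and 28.3 CPM at P5, in the same order of replicates. The ages were apart, by less than the gap of Ephb2. The means of 41.7 ± 2.61 and 28.6 ± 2.28 CPM (SD, n = 3 each) differed 1.46-fold (log2 fold change 0.55, standard error 0.103, edgeR adjusted p = 0.00370). With E18 replicate 4 alone the log2 fold change was 0.49, in a fit that cannot show the spread at E18.

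Ephb3, a receptor that acts with EphB2 in axon pathfinding, lies on chromosome 16 (21204755 to 21223305, plus strand). It had 40.2, 34.2 and 44.7 CPM at E18 and 23.5, 33.5 and 23.0 CPM at P5. P5 replicate 8 came close to E18 replicate 3, so the ages were barely apart. The means were 39.7 ± 5.29 and 26.7 ± 5.95 CPM (SD, n = 3 each), a 1.49-fold difference (log2 fold change 0.57, standard error 0.168, edgeR adjusted p = 0.0237). This call was lost without E18 replicate 1 (0.57, edgeR adjusted p = 0.0601), E18 replicate 4 (0.48, 0.0768), P5 replicate 6 (0.48, 0.0934) or P5 replicate 9 (0.48, 0.0785), each with its log2 fold change and adjusted p. With E18 replicate 4 alone the log2 fold change was 0.76, again without a measure of the spread at E18.

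Ephb1, the receptor of the ipsilateral projection, lies on chromosome 9 (101922128 to 102354693, minus strand). It had 44.3, 44.3 and 45.6 CPM at E18 and 39.3, 36.1 and 42.4 CPM at P5. The E18 samples agreed closely and all lay above the P5 samples, though P5 replicate 9 was near them. The means were 44.8 ± 0.766 and 39.3 ± 3.12 CPM (SD, n = 3 each). The log2 fold change of 0.19 had a 95% interval of -0.03 to 0.40 and missed the threshold (edgeR adjusted p = 0.140). In GENCODE M21 Ephb1 shares 152 exonic bases with a transcript on the opposite strand, Gm26846, which is no gene of the table.

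Ephb4, the receptor of veins that binds ephrin-B2, lies on chromosome 5 (137350109 to 137378669, plus strand) and was the rarest member. Its counts were 161, 131 and 158 reads at E18 and 265, 294 and 355 reads at P5, or 1.94, 1.17 and 1.74 CPM against 2.99, 2.99 and 3.77 CPM. Every P5 sample was above every E18 sample. The means of 1.62 ± 0.402 and 3.25 ± 0.454 CPM (SD, n = 3 each) gave a 2.01-fold higher level at P5 (log2 fold change -1.01, standard error 0.246, edgeR adjusted p = 0.0113). With E18 replicate 4 alone the log2 fold change was -0.89, without a measure of the spread at E18.

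Blood vessels are a known source of Ephb4, and markers of endothelial cells and pericytes moved in both directions. Of the 10 markers, 7 were tested, 1 was higher (Kdr) and 3 were lower at E18 (Tek, Pecam1 and Rgs5). Pdgfrb, Cspg4 and Cldn5 did not pass. The shares over all genes tested were 20.8% higher and 22.5% lower. Kdr had 69.5, 62.9 and 14.1 CPM in E18 replicates 1, 3 and 4 and 4.79 to 11.3 CPM at P5. Among the E18 samples it was lowest in replicate 4, as were the sums of progenitor and amacrine markers. The sum of the 10 markers was 16.4 to 72.5 CPM at E18 and 14.6 to 17.7 CPM at P5, most of it from Kdr at E18. Without Kdr, left out after its values were seen, the sum was 1.66 to 2.99 CPM at E18 and 6.41 to 9.81 CPM at P5. The direction of the sum thus depended on the 1 gene left out. The markers of the list that were not tested, Cdh5, Tie1 and Emcn, were at most 0.0638 CPM in any sample. Of those lower at E18, Tek had means of 0.830 CPM at E18 and 2.88 CPM at P5. Pecam1 had means of 0.686 and 2.41 CPM, and Rgs5 of 0.112 and 2.33 CPM. The adjacent gene Zan runs on the opposite strand and shares 33 exonic bases with Ephb4 in GENCODE M21, and it had 0.268 to 0.410 CPM at E18 and 1.24 to 2.43 CPM at P5. Whether reads were counted by strand is not given in the sources used here, so reads on the shared bases cannot be told apart. The part of vessels or of Zan in the difference was not tested.

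**Figure D2:**
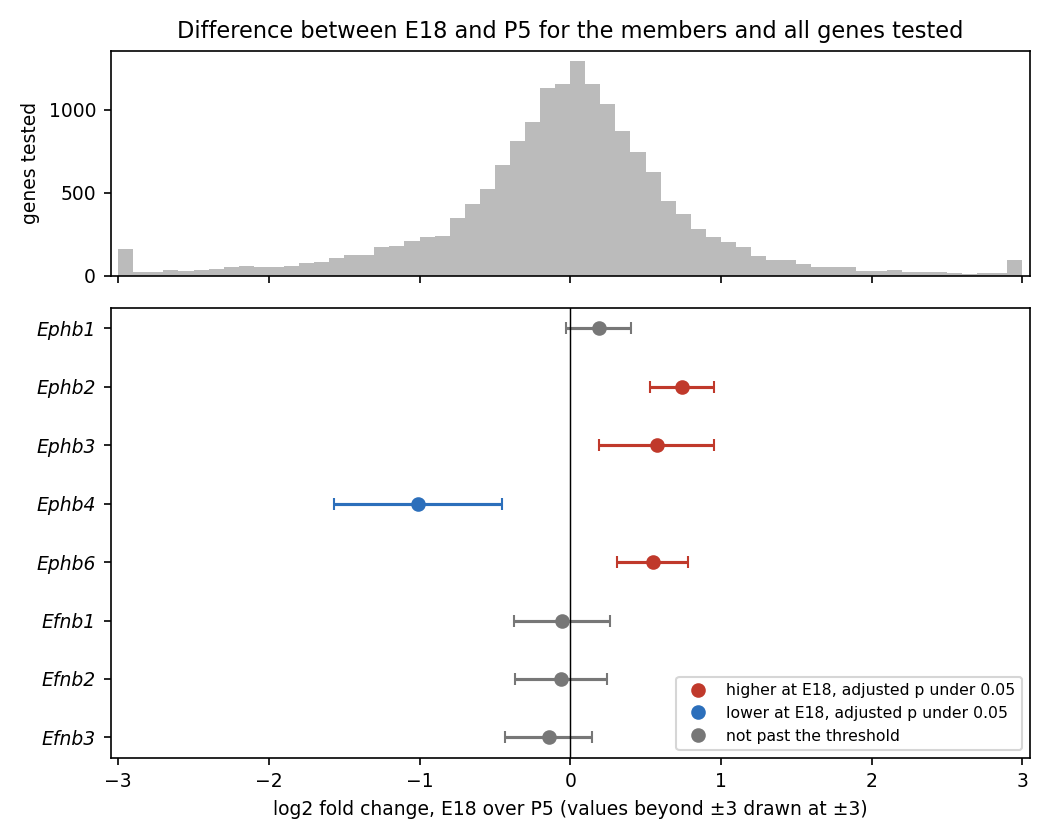
The upper panel is a histogram of the log2 fold change, E18 over P5, of all 16449 genes tested, and the lower panel gives each member's log2 fold change (x axis) with its 95% interval from edgeR. Ephb2, Ephb3 and Ephb6 lie right of 0 and Ephb4 left of 0, and the intervals of Ephb1 and the 3 ligands include 0.

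The ephrin-B ligands did not pass the threshold. Efnb3, a ligand of the midline that also binds EphA4, lies on chromosome 11 (69554092 to 69560205, minus strand) and had 60.6, 63.1 and 75.6 CPM at E18 and 70.8, 84.0 and 65.1 CPM at P5. The samples of the ages were interleaved. The means were 66.4 ± 8.05 and 73.3 ± 9.67 CPM (SD, n = 3 each), and the log2 fold change was -0.14 with a 95% interval of -0.43 to 0.15 (edgeR adjusted p = 0.390).

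Efnb2, the chiasm ligand and also a marker of arteries, lies on chromosome 8 (8617434 to 8661242, minus strand). It had 54.2, 48.1 and 40.9 CPM at E18 and 44.3, 56.9 and 48.0 CPM at P5, and the ages overlapped. The log2 fold change was -0.06 with a 95% interval of -0.37 to 0.25 (edgeR adjusted p = 0.744). Efnb1, the X-linked ligand (99136130 to 99148991, plus strand), had 25.8, 30.4 and 25.6 CPM at E18 and 23.2, 31.8 and 29.9 CPM at P5. Its log2 fold change was -0.06 with a 95% interval of -0.37 to 0.26 (edgeR adjusted p = 0.772). These intervals leave room for changes of either sign in all 3 ligands. P5 replicate 8 was the highest P5 sample in all 3 ligands and in Ephb2 and Ephb3.

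Levels of different genes were compared as CPM per kb of exon, with exon lengths from GENCODE M21. Summed over the 5 receptors, the level was 36.5, 36.9 and 36.7 CPM per kb in E18 replicates 1, 3 and 4 and 25.3, 26.4 and 25.1 CPM per kb in P5 replicates 6, 8 and 9. The samples of one age nearly coincided, and the E18 mean was 1.43 times the P5 mean. Summed over the 3 ligands, the level was 34.4, 35.6 and 37.1 CPM per kb at E18 and 35.4, 43.9 and 36.1 CPM per kb at P5, a ratio of the means of 0.928 that was 0.998 without P5 replicate 8. The ratio of receptor to ligand levels was 1.03 ± 0.0360 at E18 and 0.670 ± 0.0602 at P5 (SD over 3 samples an age), with no overlap. With the lengths of the RefSeq transcripts in place of all exons, these ratios were 1.16 and 0.766. The exact two-sided permutation test gave p = 0.1 for the receptor sum and for the ratio, the smallest p that 3 samples against 3 allow, and p = 0.5 for the ligand sum. Adjusted over the 11 sums and shares tested, these became 0.22, 0.22 and 0.856.

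**Figure D3:**
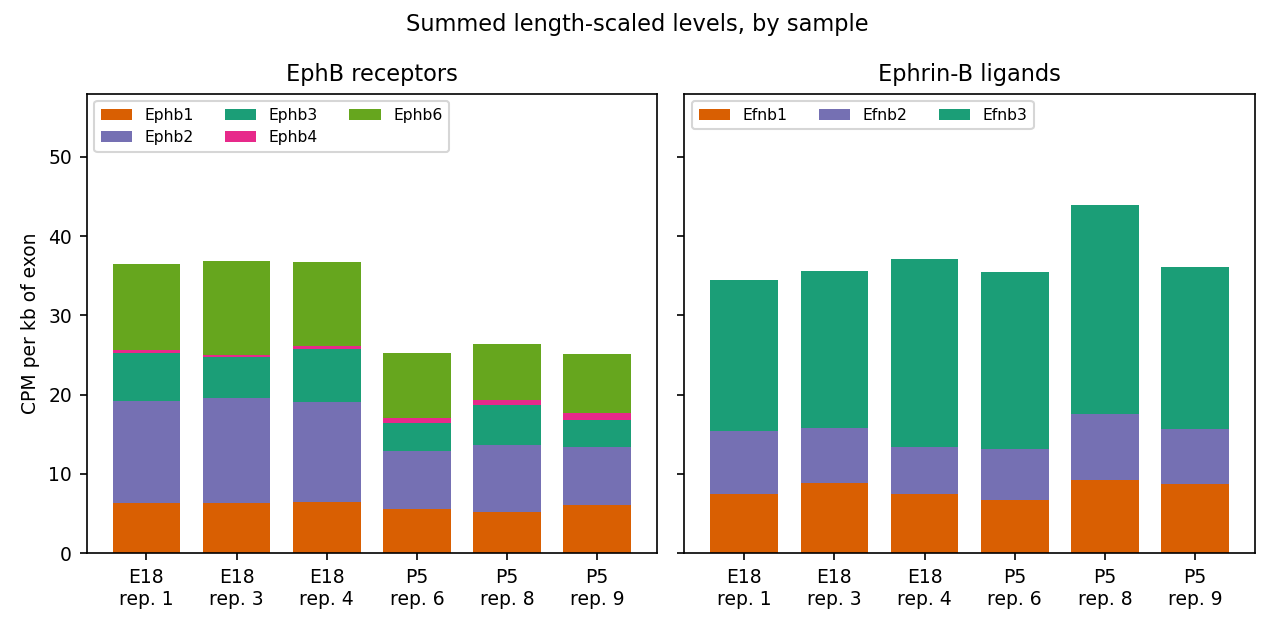
Stacked bars give the CPM per kb of exon (y axis, from 0) of each EphB receptor (left) and each ephrin-B ligand (right) in each of the 6 samples. The receptor stacks reach 36.5 to 36.9 at E18 and 25.1 to 26.4 at P5, and the ligand stacks reach 34.4 to 43.9 over both ages.

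Efnb3 was the most abundant member per length at both ages (means of 20.9 ± 2.53 and 23.0 ± 3.04 CPM per kb, SD, n = 3 at each age) and made up 58.3% and 59.8% of the ligand level. At E18 it was followed by Ephb2 (12.9 ± 0.379 CPM per kb) and Ephb6 (11.1 ± 0.692 CPM per kb), an order that held in every sample. Efnb1 (7.89), Efnb2 (6.96), Ephb1 (6.39) and Ephb3 (5.98 CPM per kb) came next and overlapped with their neighbours in this order. At P5 the levels of Efnb1 (8.20), Ephb2 (7.71), Ephb6 (7.57) and Efnb2 (7.26 CPM per kb) followed Efnb3 and overlapped with their neighbours, and Ephb1 (5.61) and Ephb3 (4.01 CPM per kb) stood below them. Ephb4 was last at both ages (0.349 ± 0.0865 and 0.700 ± 0.0978 CPM per kb, SD, n = 3 each). With RefSeq transcript lengths, Efnb3 stayed first, Ephb4 last and Ephb2 and Ephb6 in places 2 and 3 at E18, where Ephb6 was above Efnb2 in 2 of 3 samples, and the order of the others changed.

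Within the receptor level, Ephb2 held 35.3%, 36.1% and 34.2% in E18 replicates 1, 3 and 4 and 28.7%, 32.3% and 29.1% in P5 replicates 6, 8 and 9. Its share was higher in every E18 sample, and those of Ephb1 (17.4% against 21.95%) and Ephb4 (0.951% against 2.74%) were lower in every E18 sample. Each of these 3 shares had p = 0.1 in the exact permutation test, the smallest possible, and 0.22 when adjusted over the 11 tests. The shares of Ephb6 (30.1% against 29.6%) and Ephb3 (16.3% against 15.6%) overlapped between the ages.

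The proteins that carry EphB and ephrin-B signals were read from lists of 51 genes, of which 50 were tested. Among these, 20 were higher at E18, 9 were lower and 21 did not pass (edgeR, adjusted over all genes), against 43.4% of all genes tested past the threshold in either direction, 20.8% as higher and 22.5% as lower. The median log2 fold change was 0.16. Without E18 replicate 3 the count of these genes past the threshold fell from 29 to 16, while that over all genes fell from 7135 to 4575.

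On the forward side, 9 of 23 genes were higher at E18 and 4 were lower, with a median log2 fold change of 0.16. The exchange factor Vav3 had 130 ± 33.0 CPM at E18 and 63.9 ± 4.59 CPM at P5 (log2 fold change 1.03, edgeR adjusted p = 0.00201), and Kalrn, whose product kalirin acts with EphB2 in dendritic spines, had 354 ± 17.8 and 189 ± 25.1 CPM (0.91, edgeR adjusted p = 0.000596; SD, n = 3 for each mean). In E18 replicates 1, 3 and 4 Vav3 had 124, 166 and 101 CPM, lowest in the sample with the least progenitor and amacrine RNA. Whether other cells had a part in the Vav3 level was not tested. The related Vav2 was also higher at E18, with a log2 fold change of 0.64. The largest falls were those of Sdc2, a heparan sulfate proteoglycan phosphorylated by EphB2 (8.78 ± 1.46 CPM at E18 against 22.4 ± 2.08 CPM at P5, SD, n = 3 each, log2 fold change -1.35, edgeR adjusted p = 0.000433), the adaptor Grb10 (-1.21) and the Src-family kinase Yes1 (-0.45). Grb10 had 78.9, 41.1 and 29.4 CPM in E18 replicates 1, 3 and 4, and the part of other cells was not tested.

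On the reverse side, 6 of 14 genes were higher at E18 and 1 was lower, with a median log2 fold change of 0.39. The phosphatase Ptpn13, which acts on the ephrin-B tail, had 18.9 ± 5.79 CPM at E18 and 6.61 ± 1.31 CPM at P5 (SD over 3 samples an age, log2 fold change 1.52, edgeR adjusted p = 0.00196). Ptpn13 was also lowest in E18 replicate 4, with 23.5, 20.8 and 12.4 CPM in E18 replicates 1, 3 and 4. The part of other cells in this was not tested. The polarity protein Pard6b (0.80) and the Wnt transducer Dvl2 (0.61) were also higher on the log2 scale. The gene that was lower was Grip2, a PDZ scaffold that binds the ephrin-B tail (9.60 ± 2.06 against 21.7 ± 1.91 CPM, SD, n = 3 each, log2 fold change -1.18, edgeR adjusted p = 0.00124).

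Of the genes that cleave or switch off Ephs and ephrins, 5 of the 13 tested were higher at E18 and 4 were lower, with a median log2 fold change of 0.09. Adam10, the protease that sheds ephrins and Ephs, had 115.5 ± 9.76 CPM at E18 and 81.3 ± 8.04 CPM at P5 (SD over 3 samples an age, log2 fold change 0.51, edgeR adjusted p = 0.00609). The protease Mmp2 (0.91) and the phosphatase Ptpn1 (0.59) were also higher on the log2 scale. The gamma-secretase subunit Psen2 (-0.54) and the phosphatases Ptprj (-0.36) and Acp1 (-0.31) were lower. Mmp9, named after its value was seen, had the largest fall of the list (-2.57) at a low level, 0.626 CPM at E18 and 3.72 CPM at P5.

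**Figure D4:**
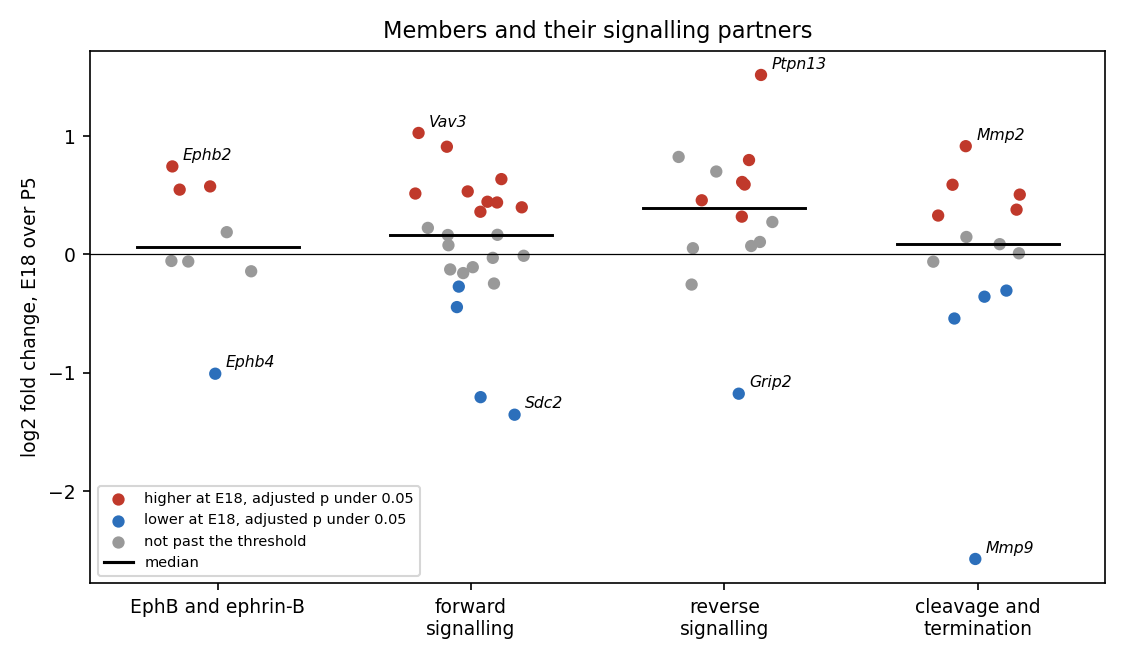
Each point is a gene, with its log2 fold change, E18 over P5, on the y axis, for the 8 members and the 3 lists of signalling partners, and black lines are medians. Red points passed the threshold as higher at E18 and blue points as lower, and the median is highest in the reverse-signalling list at 0.39.

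A-class genes that also bind B-class partners did not pass the threshold. Epha4, a receptor for ephrin-B2 and ephrin-B3, had 227 ± 25.5 CPM at E18 and a mean of 263 CPM at P5 (log2 fold change -0.21, edgeR adjusted p = 0.182). Efna5, an ephrin-A that binds EphB2, had 10.7 ± 0.989 CPM at E18 and a mean of 11.3 CPM at P5 (-0.08, edgeR adjusted p = 0.682).

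The gene most like each member over the 6 samples, by Pearson's r of log2(CPM + 0.5) and with genes averaging under 10 CPM left out, is given as a description. It was Tpi1 for Ephb1 (r = 0.996), Sh3pxd2b for Ephb2 (0.999), Vps37d for Ephb3 (0.995), C330006A16Rik for Ephb4 (0.997) and 3632451O06Rik for Ephb6 (0.996). For the ligands it was A230057D06Rik for Efnb1 (0.996), 5830418K08Rik for Efnb2 (0.941) and Zbtb8b for Efnb3 (0.984). The points share libraries and the division by age, and 933 genes reached an r above 0.95 with Ephb2, against 4 with Efnb3 and 0 with Efnb2.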

How the data were processed

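RNA of immunopanned RGCs was measured in 3 E18 and 3 P5 samples, grouped by their titles. The authors prepared libraries after ribosomal RNA depletion (the labels name polyA RNA), aligned 100-base paired reads with STAR 2.4.0 to the mm10 genome, obtained reads per RefSeq gene from HT-seq 0.6.1 and deposited these raw counts. The deposited normalized counts, a signal scaled by the authors for library size, were not used, nor were the authors' deposited log2 fold changes, p-values and rank score of their edgeR comparison. Whether E18 replicate 1, numbered 1, 2 and 5 in the header, combines several preparations is not given in the sources used here. Handling of reads shared by similar genes is not stated.

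Counts were filtered by edgeR's filterByExpr, normalized by TMM and tested by the quasi-likelihood test of edgeR 4.0.16 (R 4.3.3), which was tested on simulated data. Fold changes are E18 over P5, and standard errors belong to the fit. Sums and shares were tested with exact two-sided permutation tests (scipy 1.17.1). No samples of one age agreed within sampling noise (chi-square per degree of freedom 32.1 to 149). Coordinates and exon lengths are from GENCODE M21, and promoters from RefSeq (GRCm38.p6). The members and lists were chosen with earlier results of these data known. The genes named are the members, per signalling list up to 3 with the largest rise and 3 with the largest fall past the threshold at a mean of at least 5 CPM, all past it in the shorter lists, and 1 most similar gene per member. The alternatives were DESeq2 1.42.0, the edgeR exact test, RLE and upper-quartile scaling, other filters and lengths, and leaving out samples. The sum over photoreceptor markers is not reported here.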

Additional observations from a re-analysis of the deposited data

How the results depend on the processing

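The members past the threshold numbered 4 under DESeq2, the edgeR exact test, both other scalings and both other filters, and 3 to 4 with any 1 sample left out. Ephb2, Ephb4 and Ephb6 passed in all 6 of those fits and Ephb3 in 2. Ephb4 came closest to the threshold without E18 replicate 3 (log2 fold change -0.81, edgeR adjusted p = 0.0487). Over the 6 fits, the count over all genes was 4575 (without E18 replicate 3) to 8796 (without P5 replicate 8), and that of signalling partners 16 to 31 (without the same replicates). With E18 replicate 4 alone against P5, chosen after seeing the data and with that sample assumed to vary like the P5 samples, 1 member, 7 partners and 1633 genes passed, with fewer samples in the fit, and the log2 fold change of Efnb3 turned to 0.054. With 1 sample left out, the log2 fold change of Efnb1 ranged from -0.20 to 0.018, above 0 without P5 replicate 8, and that of Efnb2 from -0.16 to 0.041, above 0 without E18 replicate 4 or P5 replicate 8, with no call in any of these fits (the cause was not tested). Sums per kb kept their direction under every scaling, length and left-out sample. No paired analysis was possible because the ages share no replicate number. Depth limits Ephb4 most, with 131 to 355 reads per sample.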

Other observations

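All 9 genes listed as patterning the dorsoventral axis of the retina, along which EphB and ephrin-B are graded, had reads. Of these, 7 had enough to be tested, 2 were higher at E18 and none was lower. Over all genes tested, 20.8% were higher and 22.5% were lower. Tbx3, a dorsal T-box factor, had 9.04 ± 0.961 CPM at E18 and 3.30 ± 0.355 CPM at P5 (SD, n = 3 each, log2 fold change 1.45, edgeR adjusted p = 0.000474), and the BMP pseudoreceptor Bambi had 11.98 ± 0.317 and 7.03 ± 1.16 CPM (SD, n = 3 each, 0.77, edgeR adjusted p = 0.00459). The ventral factor Vax2 had 20.5 ± 1.70 and 20.9 ± 1.44 CPM (SD, n = 3 each) and did not pass (edgeR adjusted p = 0.841).

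Of the 5 genes that mark ipsilateral RGCs beside Ephb1, 1 was higher at E18, 2 were lower and 2 did not pass, against 43.4% of all genes tested past the threshold in either direction. Foxd1, a factor of the ventrotemporal retina, was higher at E18 at a low level (1.94 ± 0.806 against 0.501 ± 0.264 CPM, SD, n = 3 each, log2 fold change 1.94, edgeR adjusted p = 0.00909), and Boc (-2.85) and Igfbp5 (-2.16) were lower on the log2 scale. Boc was at a low level too, with means of 0.413 CPM at E18 and 2.95 CPM at P5, against 10.5 and 46.6 CPM for Igfbp5. Zic2, the factor that drives Ephb1 in ipsilateral RGCs, had 4.97 ± 2.08 and 3.50 ± 0.843 CPM (SD, n = 3 each, edgeR adjusted p = 0.217). The serotonin transporter gene Slc6a4 had 20.3 CPM at either age. Among the 14 genes of the A class, 4 were higher at E18, 4 were lower and 6 did not pass, with a median log2 fold change of 0.06. The shares over all genes tested were 20.8% higher and 22.5% lower, 43.4% in either direction.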
